A study of Mus musculus with 2 samples.

Results

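Genes of the cubilin, amnionless and megalin uptake system were read in RNA of whole embryos of the mouse, taken 8.5 days post coitum, on the Affymetrix array that the titles call 430. The system was taken as 8 genes, Cubn, Amn, Lrp2, Dab2, Lrpap1, Lgmn, Ctsl and Fcgrt, and their probe sets were all those annotated to one of these symbols and no other. This gave 18 probe sets of the 8 genes, out of 34945 probe sets with a single symbol for 18193 genes. One array held RNA of embryos that carried both copies of chromosome 18 from the mother (maternal uniparental disomy, matUPD18), and 1 array held RNA of embryos with both copies from the father (patUPD18). Age and tissue were matched, and the whole chromosome was disomic in both kinds. The labels give neither the number of embryos behind each RNA nor the crosses or strains that made them, and no embryo with a copy from each parent was among the arrays. None of the 8 genes lies on chromosome 18.

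Cubilin, the product of Cubn, is a large peripheral receptor that binds albumin, apolipoprotein A-I, transferrin and the intrinsic factor-cobalamin complex. Amnionless, from Amn, anchors cubilin in the membrane, and megalin, from Lrp2, is a giant member of the LDL receptor family that shares ligands with it. In rodents the visceral endoderm of the yolk sac takes up maternal protein through these receptors, brings them into clathrin-coated pits with the adaptor Dab2, and digests the cargo in lysosomes. Megalin is also made in the neuroepithelium and other absorptive epithelia, so the receptors do not share all their sites of expression.

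The bases before the transcription start are shown for the members whose probe sets all read higher in matUPD18 and were past or nearest 2-fold (Cubn, Amn and Dab2), and for the coreceptor gene Lrp2, which was within 2-fold. Each window is the 250 bases before an annotated start, from RefSeq on GRCm38.p6, written 5′ to 3′ on the strand of the gene. Dab2 has 2 annotated starts. Capitals mark matches to any of 7 short motifs on either strand. The letters searched were GTTAAT, the core of HNF1 sites, CAAAGTCCA, the core of HNF4 sites, and AGGTCA, the core of nuclear receptor sites. They also took in AGATAA for GATA factors, TGTTTAC for FOXA factors, ATTGTT for SOX factors and CACGTG, an E-box.
Cubn, chr2:13491877-13492126, minus strand: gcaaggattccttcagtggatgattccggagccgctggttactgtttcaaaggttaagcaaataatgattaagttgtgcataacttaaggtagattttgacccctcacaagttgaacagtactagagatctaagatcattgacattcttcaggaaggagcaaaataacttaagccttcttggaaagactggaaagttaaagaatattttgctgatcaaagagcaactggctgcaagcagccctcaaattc
Amn, chr12:111270846-111271095, plus strand: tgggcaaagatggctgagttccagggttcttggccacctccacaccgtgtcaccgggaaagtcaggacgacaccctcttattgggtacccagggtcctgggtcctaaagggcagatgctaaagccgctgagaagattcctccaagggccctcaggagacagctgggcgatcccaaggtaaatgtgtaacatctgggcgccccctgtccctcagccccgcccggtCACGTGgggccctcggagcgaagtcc
Dab2 start 1, chr15:6299539-6299788, plus strand: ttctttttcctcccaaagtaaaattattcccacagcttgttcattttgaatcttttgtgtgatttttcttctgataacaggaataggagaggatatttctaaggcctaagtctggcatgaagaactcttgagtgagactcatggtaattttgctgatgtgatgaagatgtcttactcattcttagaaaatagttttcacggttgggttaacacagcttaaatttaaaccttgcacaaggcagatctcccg
Dab2 start 2, chr15:6386498-6386747, plus strand: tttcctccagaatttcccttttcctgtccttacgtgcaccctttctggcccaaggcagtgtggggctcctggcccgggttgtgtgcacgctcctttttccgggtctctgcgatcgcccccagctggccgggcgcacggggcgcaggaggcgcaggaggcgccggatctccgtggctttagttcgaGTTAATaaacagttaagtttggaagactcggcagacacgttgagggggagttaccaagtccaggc
Lrp2, chr2:69586030-69586279, minus strand: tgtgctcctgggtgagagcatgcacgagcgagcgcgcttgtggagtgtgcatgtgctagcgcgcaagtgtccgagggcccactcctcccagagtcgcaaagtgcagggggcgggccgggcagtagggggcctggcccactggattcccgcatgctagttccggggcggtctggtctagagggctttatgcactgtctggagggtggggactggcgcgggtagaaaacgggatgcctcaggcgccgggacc
The CACGTG in the Amn window ends 20 bases before the start, and the GTTAAT in the second Dab2 window ends 59 bases before it. The Cubn, Lrp2 and first Dab2 windows held none of these letter strings.

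Over the 10 windows of the 8 genes, CACGTG was found in 3, those of Amn, of 1 of the 2 Lgmn starts and of Ctsl, and it occurs in 6.02% of all 32851 promoter windows of this length. GTTAAT, found in 1 member window, occurs in 6.43% of all windows. TGTTTAC, found in the Fcgrt window, occurs in 3.17%, and ATTGTT, found in the Ctsl window, occurs in 9.42%. No member window held CAAAGTCCA (0.384% of all windows), AGGTCA (in 14% of all windows) or AGATAA (in 9.99%). The windows of Cubn and Amn differed in base composition, with 39.6% G and C and 2 CpG in Cubn against 61.2% and 11 CpG in Amn, and the median of all windows was 52.4% G and C. A letter match is a description and not a binding site.

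The deposited values are MAS5 signals, 1 for each probe set and array, in arbitrary units, already scaled so that the trimmed mean was 500.003 in matUPD18 and 500.004 in patUPD18. With 1 array for each kind of embryo there is no replicate error and no test, and the number of arrays limits the precision of every value. A probe set counted as measurable if its higher signal was at or over the 60th percentile of that array (190.1 for matUPD18, 184.9 for patUPD18), and signals under the 40th percentile (84.2 and 82.5) were raised to it before a ratio was taken. Log2 ratios are matUPD18 over patUPD18. As a measure of technical disagreement, the pooled SD between measurable probe sets that share a gene was 0.44 in log2 ratio (10206 probe sets, 4003 genes), which holds no difference between embryos. Impact, the paternally expressed gene of chromosome 18, read 328.4 in matUPD18 and 2466 in patUPD18 by its brightest probe set, the direction that the labels call for, although its 2 other probe sets leaned the other way. All 18 bacterial and phage hybridisation controls read lower on the matUPD18 array, with a median log2 ratio of -0.56. The 3' signal of Gapdh was 33.95 times the 5' signal in matUPD18 and 36.4 times in patUPD18, so probe sets far from a transcript's 3' end could read low on both arrays.

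Of the 8 genes, 6 were measurable, namely Cubn, Amn, Lrp2, Dab2, Lrpap1 and Ctsl, and 13 of the 18 probe sets were. Lgmn and Fcgrt stayed under the limit on both arrays. Cubn and Amn were at least 2-fold higher in matUPD18, and no measurable member was 2-fold higher in patUPD18. Among all 10493 measurable genes, 285 (2.72%) passed 2-fold toward matUPD18 and 192 (1.83%) toward patUPD18. Cubn and Amn reached the limit on the matUPD18 array alone, so their place among the measurable members already required a difference, and the count of 2 of 6 is a description. The 6 genes had a median log2 ratio of 0.44, against -0.04 for all measurable genes, and their median too is in part set by the filter.

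**Figure D1:**
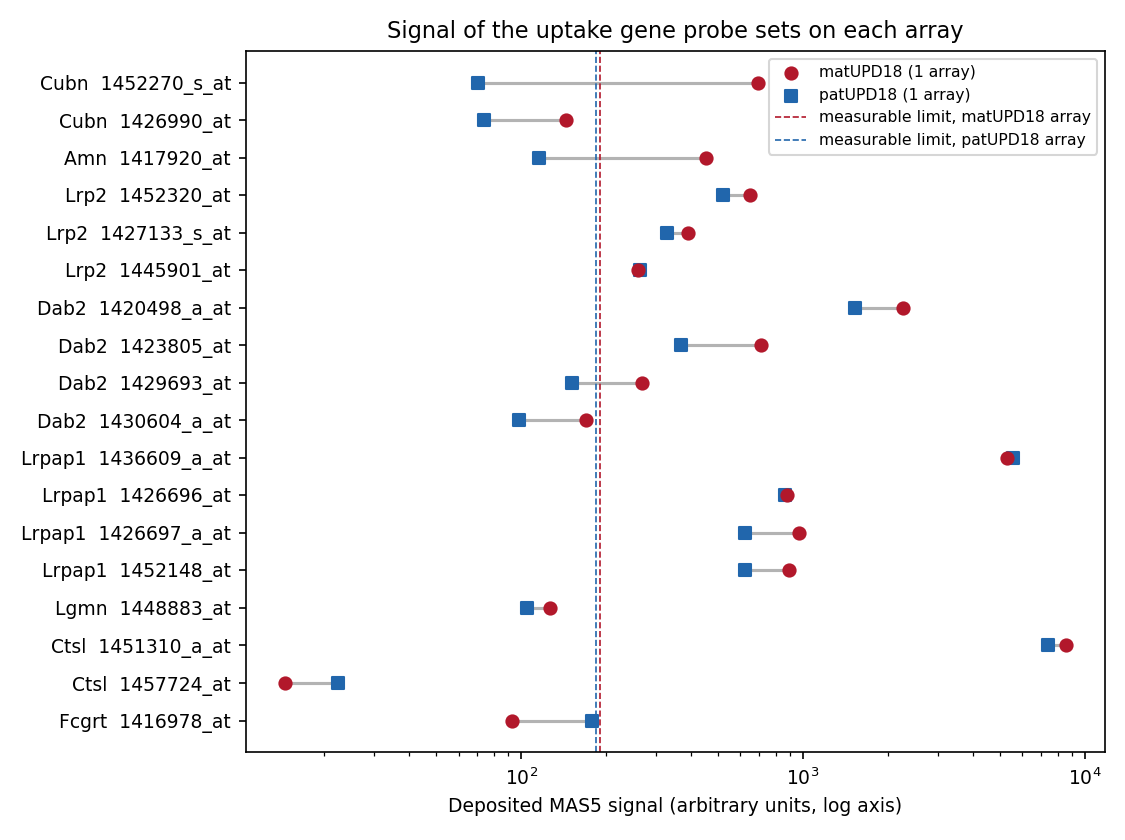
Deposited signal (log axis) of the 18 probe sets of the uptake genes, with 1 row for each probe set, circles for the matUPD18 array and squares for the patUPD18 array; dashed lines mark the limit for a measurable signal on each array. The brighter Cubn row and the Amn row lie left of the limit in patUPD18 and right of it in matUPD18, the 4 Dab2 rows all have the circle to the right, and the Lrp2 and brightest Lrpap1 rows have the marks close together.

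The receptor gene Cubn had the largest ratio of the system. Its brighter probe set, 1452270_s_at, read 689.8 in matUPD18 and 70.5 in patUPD18. The patUPD18 signal lay under the floor, so the fold toward matUPD18 was at least 8.37, and it was 9.78 by the deposited signals. This ratio was the 6th highest toward matUPD18 of all 10493 measurable genes. It was the 3rd highest of 501 genes centred on the mean of its floored log2 signals, the scale used for all ranks by like signal. Cubn was measurable through matUPD18 alone, so its ranks are in part set by the filter. The other probe set, 1426990_at, read 144.3 in matUPD18 and 73.6 in patUPD18, in the same direction but under the measurable limit on both arrays. Its ratio was 1.75-fold with the floor, so the Cubn probe sets differed by 2.26 on the log2 scale, well over the pooled SD between probe sets. Both carry the same sequence accession in the annotation. The suffix _s_at marks a probe set that may match several transcripts, and without such probe sets Cubn was not measurable.

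Amn, the membrane anchor of cubilin, read 452.7 in matUPD18 and 115.4 in patUPD18 by its only probe set. This was 3.92-fold higher in matUPD18, the 26th highest ratio of all measurable genes and the 5th highest of 501 genes of like signal. Both signals were above the floor, though the patUPD18 signal lay under the measurable limit, so these ranks too are in part set by the filter. Raising the floor to the 60th percentile brought the log2 ratio of Amn to 1.29 and that of Cubn to 1.90, both still past 2-fold. With a single probe set, Amn had no second reading on these arrays.

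Lrp2, which encodes megalin, differed little between the arrays. The brightest of its probe sets had a signal of 651.1 in matUPD18 and 519.9 in patUPD18, a 1.25-fold difference. The second read 392.4 in matUPD18 and 329.8 in patUPD18. The third was level, with 258.9 in matUPD18 and 264.8 in patUPD18. All 3 probe sets were measurable, and their log2 ratios (0.32, 0.25 and -0.03) lay within the pooled SD between probe sets of 0. The sign of the third turned positive with scaling on the hybridisation controls. The Lrp2 ratio ranked 93rd toward matUPD18 among 501 genes of like signal, where Cubn and Amn ranked 3rd and 5th in their own signal ranges. Lrp2 was measurable on both arrays, but Cubn and Amn through matUPD18 alone, so these ranks are not on equal terms. By the brightest probe sets, megalin and its receptor partners differed in log2 ratio on the same pair of arrays, with values of 3.06 (Cubn), 1.97 (Amn) and 0.32 (Lrp2). The dimmer Cubn probe set, under the measurable limit, gave 0.81. No error could be put on those differences beyond the spread between probe sets.

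Dab2, the clathrin adaptor that binds the cytoplasmic tail of megalin, leaned toward matUPD18 in each of its 4 probe sets without reaching 2-fold in any. The brightest read 2254 in matUPD18 and 1532 in patUPD18 (1.47-fold). The next read 708.6 in matUPD18 and 370.2 in patUPD18 (1.91-fold), and the third 269.3 in matUPD18 and 151.3 in patUPD18 (1.78-fold). These 3 were measurable, and the fourth, under the limit, read 170.1 in matUPD18 and 98.6 in patUPD18 (1.72-fold). The log2 ratios ran from 0.56 to 0.94, a range of 0.38, and all were larger than the pooled SD of 0.44. Probe sets of a gene share the RNA of 1 array, so their agreement is no replication. The brightest Dab2 probe set ranked 49th toward matUPD18 of 501 genes of like signal.

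Lrpap1 encodes RAP, the chaperone that keeps ligands off LDL family receptors in the endoplasmic reticulum. The brightest of 4 probe sets had a signal of 5298 in matUPD18 and 5574 in patUPD18, a log2 ratio of -0.07 that turned positive with loess scaling and with scaling on the hybridisation controls. Another read 879.6 in matUPD18 and 866.0 in patUPD18, a log2 ratio of 0.02 that turned negative with median centring, quantile and loess scaling. The remaining pair leaned toward matUPD18 under all 4 scalings. They read 970.3 and 892.7 in matUPD18, against 625.0 and 623.9 in patUPD18, which is 1.55-fold and 1.43-fold. The 4 probe sets therefore spanned 0.71 on the log2 scale, and 3 of them carry the same accession.

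Ctsl and Lgmn, the lysosomal proteases among the 8 genes, were both within 2-fold. Ctsl, or cathepsin L, an endopeptidase that degrades endocytosed protein, read 8547 in matUPD18 and 7410 in patUPD18, which is 1.15-fold higher in matUPD18. Its other probe set was under the floor on both arrays (14.5 in matUPD18 and 22.4 in patUPD18) and has no order. Lgmn, or legumain, which cuts after asparagine and processes lysosomal cathepsins, read 127.1 in matUPD18 and 105.1 in patUPD18, a 1.21-fold difference between signals that were both under the measurable limit. Fcgrt, the heavy chain of the neonatal Fc receptor that salvages IgG and albumin from degradation, read 92.6 in matUPD18 and 178.4 in patUPD18. This was 1.93-fold lower in matUPD18, under all 4 other scalings in the same direction, but the patUPD18 signal fell just short of the limit of 184.9. Fcgrt was the only one of the 8 genes to read lower in matUPD18 by over 1.5-fold. Its partner B2m, beta-2 microglobulin, read 649.8 in matUPD18 and 610.5 in patUPD18, and a second measurable probe set of B2m leaned the other way.

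**Figure D2:**
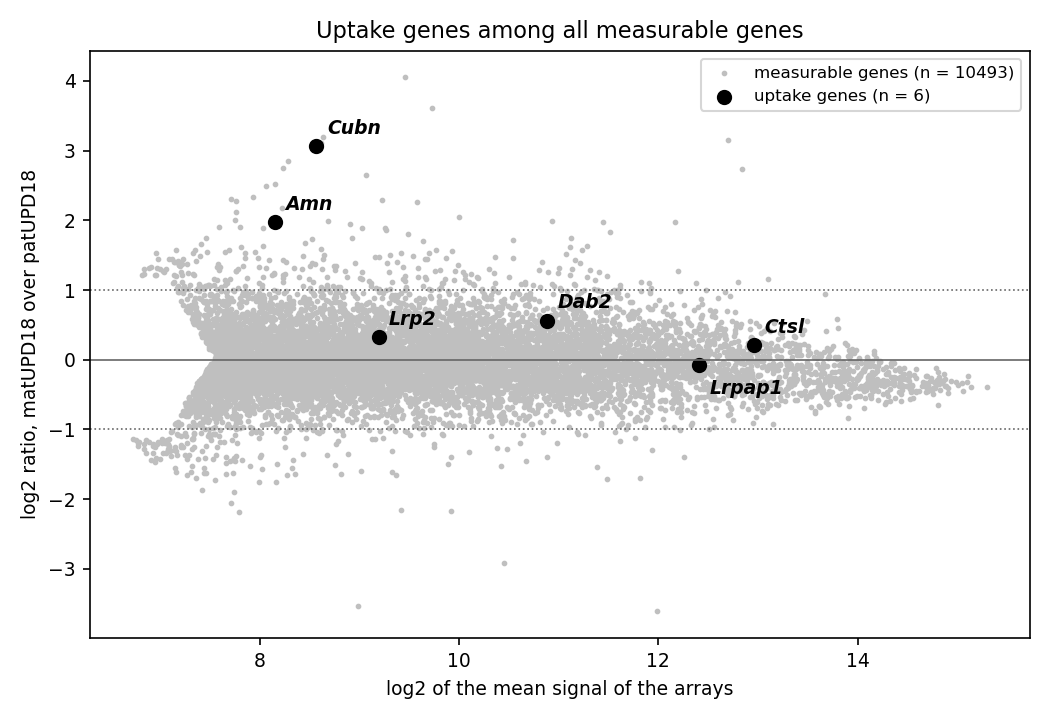
Log2 ratio (matUPD18 over patUPD18) against the log2 mean signal for the 10493 measurable genes (grey) and the 6 measurable uptake genes (black, named), each gene by its brightest measurable probe set; dotted lines mark 2-fold. Cubn at 3.06 and Amn at 1.97 lie above the bulk of genes of like signal, and Lrp2, Dab2, Lrpap1 and Ctsl lie between the dotted lines; the empty wedge at low signal follows from the measurable limit.

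The rest of the uptake route was read through 6 lists that leave the 8 genes out. Of 16 measurable LDL receptor family and other uptake receptor genes, none was 2-fold apart in either direction. Their median log2 ratio was -0.05, and they ran from -0.68 for Scarb2, a lysosomal membrane receptor, to 0.79 for Vldlr, the very low density lipoprotein receptor. Vldlr read 404.3 in matUPD18 and 233.5 in patUPD18. Its remaining pair of measurable probe sets leaned the same way. Of 29 genes for the clathrin coat and its adaptors, 1 (3.45%) passed 2-fold toward matUPD18 and 1 (3.45%) toward patUPD18, with a median of -0.01. These counts lay near the shares of all measurable genes, 2.72% toward matUPD18 and 1.83% toward patUPD18. Gulp1, an engulfment adaptor, read 936.8 in matUPD18 and 330.2 in patUPD18 (2.84-fold), but a second measurable probe set of it leaned the other way. Dnm1, a dynamin of neurons, read 47.8 in matUPD18 and 195.2 in patUPD18, which is at least 2.32-fold higher in patUPD18. That call was lost with the floor at the 60th percentile (1.03-fold) and with scaling on the hybridisation controls (1.57-fold). It was also lost where Dnm1 was not measurable. This was so with the filter at the 75th percentile and without probe sets with the suffixes _x_at, _s_at and _a_at. Gulp1 was 1.49-fold higher in matUPD18 by the median of its probe sets.

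Downstream of the coated pit the ratios stayed near those of other genes. None of 35 endosome sorting and recycling genes was 2-fold apart, with a median of 0.01. The furthest were Eea1, an early endosome tether (1.79-fold higher in matUPD18), and Rab11fip1, of recycling endosomes (1.74-fold higher in patUPD18). Among 25 lysosomal proteases, enzymes and inhibitors, 1 (4%) passed 2-fold toward matUPD18, near the 2.72% of all measurable genes, and the median was -0.17. That gene was Ctsh, cathepsin H, an aminopeptidase, with 590.9 in matUPD18 and 196.2 in patUPD18 (3.01-fold) and its other measurable probe set in the same direction. Psap, the saposin precursor, stood at the other end, with 635.4 in matUPD18 and 1146 in patUPD18 (1.80-fold higher in patUPD18). Of 14 receptor folding and cobalamin handling genes, none was 2-fold apart and the median was 0.00. Pdia4, a disulfide isomerase (1.43-fold higher in matUPD18), and Calr, the chaperone calreticulin (1.38-fold higher in patUPD18), were its ends, and a second measurable Pdia4 probe set leaned the other way.

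Ligands and cargo of the receptors were split. Of 15 measurable genes, 6 (40%) passed 2-fold toward matUPD18, against 2.72% of all measurable genes, and 0 toward patUPD18. The median log2 ratio was 0.28. Of these 6, 3 (Apoa1, Apob and Apoe) were under the measurable limit in patUPD18 and entered through matUPD18 alone, so the count and median are in part set by the filter. Without suffixed probe sets neither Apoa1 nor Ttr was measurable. Apoa1, for the cubilin ligand apolipoprotein A-I, read 1366 in matUPD18 and 43.5 in patUPD18 (at least 16.6-fold). Ttr, for transthyretin, read 11979 in matUPD18 and 1349 in patUPD18, Afp, for alpha-fetoprotein, 12717 in matUPD18 and 1914 in patUPD18, and Apob, for apolipoprotein B, 923.8 in matUPD18 and 147.6 in patUPD18. The 5 cargo genes that also stand on the visceral endoderm list were all at least 2-fold higher in matUPD18, with a median of 2.73. Of the 10 others, 1 was, and their median was -0.04. Mt2, a metallothionein gene, was the furthest toward patUPD18, with 860.6 in matUPD18 and 1295 in patUPD18.

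Markers of the tissues that hold these receptors were set beside them. Of 30 visceral endoderm and yolk sac markers, members left out, 23 were measurable. Of these, 13 (56.5%) passed 2-fold toward matUPD18, against 2.72% of all measurable genes, and 0 passed toward patUPD18. Of the 13, 9 were under the measurable limit in patUPD18 and entered through matUPD18 alone, so the count and median here too are in part set by the filter. The median log2 ratio was 1.22 and the summed signal was 44444 in matUPD18 and 10909 in patUPD18, a ratio of 4.07. Both arrays held such RNA, since the patUPD18 signals of Afp (1914) and Ttr (1349) were far above its measurable limit. Besides Apoa1 and Ttr, the largest ratios were those of Apom, an apolipoprotein (at least 9.17-fold), and Cldn2, a tight junction claudin (at least 8.66-fold). The Apom value rests on its brightest probe set. Without suffixed probe sets Apom was 1.29-fold higher in matUPD18. Slc39a5, a zinc transporter gene, was furthest the other way, with 185.7 in matUPD18 and 287.1 in patUPD18. Chosen after their values were seen, 6 transcription factor genes of that list (Gata6, Hnf4a, Foxa1, Gata4, Foxa2 and Sox17) all lay within 2-fold, with log2 ratios of 0.12 to 0.96 by the brightest probe set, next to 1.97 for Rbp4 and 3.06 for Cubn. The other measurable Hnf4a probe set leaned toward patUPD18. The remaining genes of the list within 2-fold were Car4 (0.80), Ihh (-0.08), Apoa2 (-0.15) and Slc39a5 (-0.63). Ratios within 2-fold were thus not particular to the transcription factor genes. In bulk RNA of 1 array for each genotype, the disomy, the amount of yolk sac tissue in the embryos and the level of RNA in each endoderm cell cannot be told apart.

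Markers of 5 other tissues were read the same way. Of 12 measurable parietal endoderm markers none was 2-fold apart under the deposited scaling. With scaling on the hybridisation controls 6 passed 2-fold toward matUPD18, beside 15.6% of all measurable genes. Under the deposited scaling the parietal list had a median of 0.37. Thbd, thrombomodulin, was at the top (1.91-fold higher in matUPD18) and Col4a2, a basement membrane collagen, at the other end (1.18-fold higher in patUPD18). Only 3 of 16 trophoblast and decidua markers were measurable, all within 2-fold, with Plac1 (1.67-fold higher in matUPD18) and Cryab (1.32-fold higher in patUPD18) at the ends. Of 15 macrophage markers 4 were measurable, all within 2-fold, with Adgre1 (1.18-fold higher in matUPD18) and Laptm5 (1.99-fold higher in patUPD18) at the ends. Laptm5 passed 2-fold with median centring (2.04), quantile (2.05) and loess scaling (2.04) and without suffixed probe sets (2.28), and 1 of its 2 other measurable probe sets leaned the other way. All 12 markers of the neuroepithelium, a tissue that also makes megalin, were measurable, with a median of -0.01. Fabp7 (3.05-fold) and Hes5 (2.17-fold) were higher in patUPD18, and Pax3 was 1.52-fold higher in matUPD18. The 2 genes past 2-fold toward patUPD18 were 16.7% of the list, against 1.83% of all measurable genes. Hes5 fell to 1.86-fold without suffixed probe sets. With scaling on the hybridisation controls Hes5 was 1.47-fold and Fabp7 2.06-fold higher in patUPD18. Of 9 measurable primitive red cell markers, 6 (66.7%) passed 2-fold toward patUPD18, against 1.83% of all measurable genes, and 0 toward matUPD18. The list had a median of -1.35 and its largest ratios in Ermap, Slc4a1, Hemgn and Gata1 (3.15-fold to 2.58-fold). Gata1 read 143.9 in matUPD18, under the limit, and entered through patUPD18 alone, so count and median are in part set by the filter. It was 1.95-fold higher in patUPD18 with the floor at the 60th percentile. Slc4a1 was 1.77-fold higher in patUPD18 without suffixed probe sets. With scaling on the hybridisation controls 1 red cell marker passed 2-fold. The embryonic globin genes Hbb-y and Hbb-bh1, named after their values were seen, were the nearest to level. Hbb-y read 23063 in matUPD18 and 30979 in patUPD18, and Hbb-bh1 read 17620 in matUPD18 and 26632 in patUPD18. They made up most of the summed signal of the list, 46292 in matUPD18 and 71322 in patUPD18. The part of these tissue differences in the Cubn and Amn ratios was not tested.

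**Figure D3:**
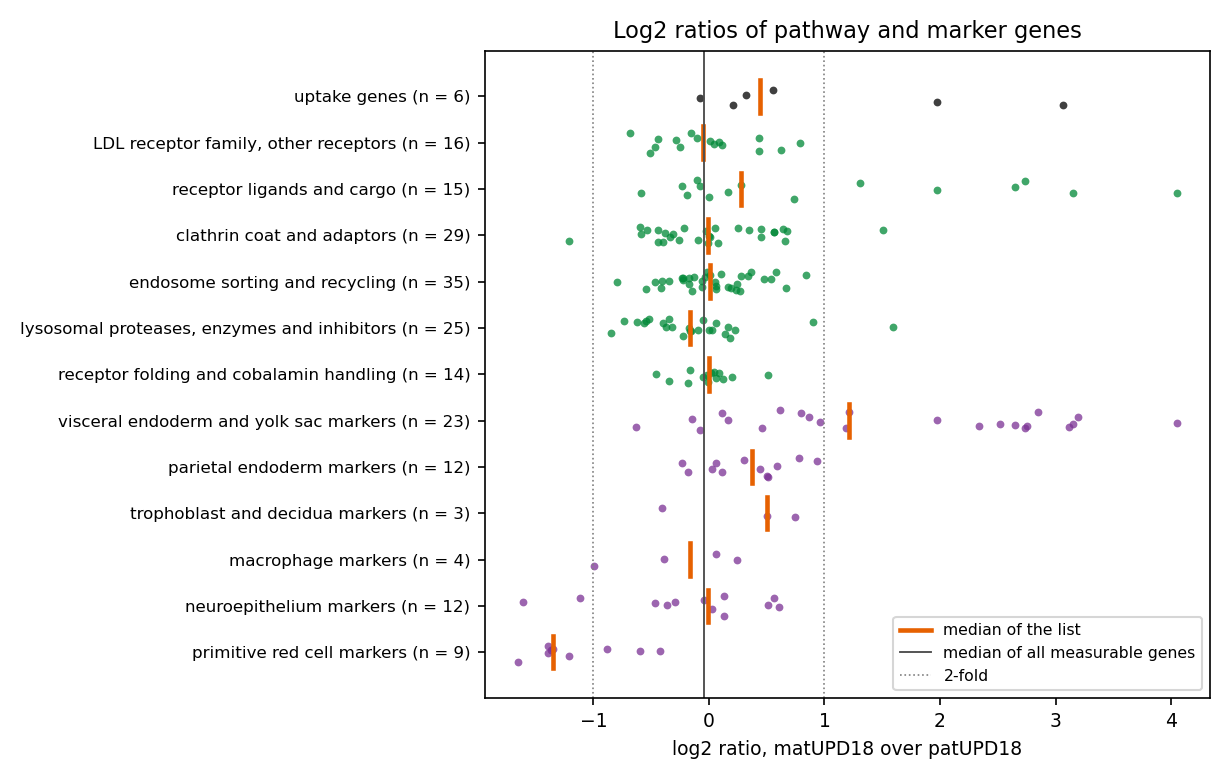
Log2 ratio (matUPD18 over patUPD18) of each measurable gene of the uptake genes (black), 6 pathway lists (green) and 6 marker lists (purple); bars mark list medians, the solid line the median of all measurable genes and dotted lines 2-fold. The visceral endoderm list is centred at 1.22 and the primitive red cell list at -1.35, and the receptor, coat, endosome, lysosome and folding lists are centred between -0.17 and 0.01; cargo and visceral endoderm lists share 5 genes.

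Genes with ratios most like those of Cubn, Amn and Dab2 were looked up among genes within 1 log2 unit of their mean signal, by the absolute difference of log2 ratios over the 2 arrays. For Cubn, among 4815 genes, these were Cldn2 (714.3 in matUPD18 and 71.2 in patUPD18), Apom (756.4 in matUPD18 and 36.7 in patUPD18) and Apoa4 (593.3 in matUPD18 and 29.7 in patUPD18), all on the visceral endoderm list and all under the floor in patUPD18. Cubn too was under that floor, so this likeness compares matUPD18 signals only. Without the floor, Cubn was 9.78-fold, Cldn2 10.0-fold and Apom 20.6-fold higher in matUPD18. Cubn, Apom and Apoa4 were each read by a suffixed probe set. Without such probe sets Cubn and Apoa4 were not measurable, and Apom was 1.29-fold higher in matUPD18. The list was chosen with earlier results known, so their place on it is a description. For Amn, among 4423 genes, the nearest were Rgmb, 4930503L19Rik and Maf, with log2 ratios from 1.95 to 2.01, none on any list. For Dab2, among 3031 genes, Ilf2, Lrrn1 and Zfx were nearest, all with a log2 ratio of 0.56. A single ratio is a coarse measure of likeness, and more so near 0, where most genes lie.

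**Figure D4:**
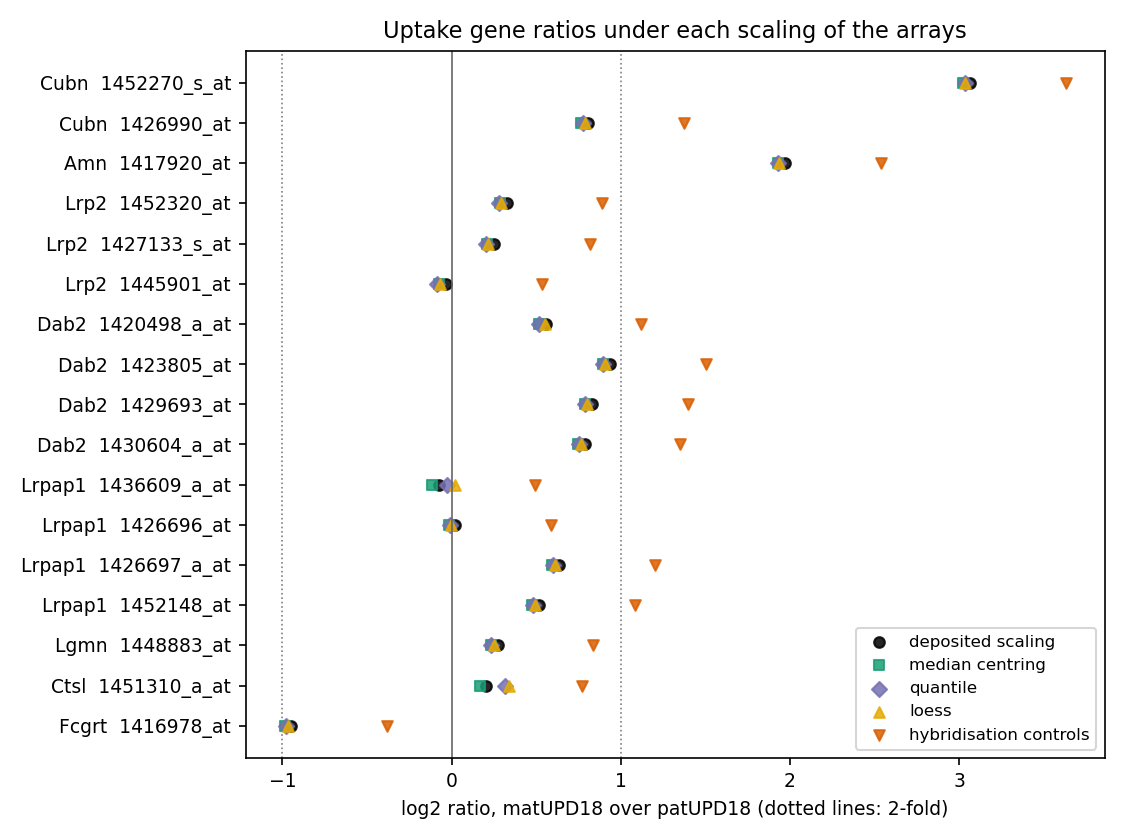
Log2 ratio (matUPD18 over patUPD18) of 17 uptake gene probe sets under the deposited scaling and 4 others, with dotted lines at 2-fold; the Ctsl probe set that is under the floor on both arrays is left out. Median centring, quantile and loess scaling stay close to the deposited values, and scaling on the hybridisation controls moves every probe set toward matUPD18, with the brightest Dab2 probe set at 1.12.

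Scaling decided how the smaller ratios read. When the arrays were set equal on the hybridisation controls, the median of all measurable genes became 0.52 and that of the 6 uptake genes 1.01. The difference between these medians was 0.48, against 0.49 under the deposited scaling. Such scaling shifts all genes nearly alike, so a near equal difference had to follow. With the deposited scaling and no filter on dim probe sets, the medians were 0.30 for all 8 members and 0.03 for all genes, a difference of 0.27. When scaled on the hybridisation controls Dab2 also passed 2-fold, as did 1641 of all 10493 measurable genes (15.6%) toward matUPD18. Cubn and Amn were at least 2-fold higher in matUPD18 under the deposited scaling and the 4 others.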

How the data were processed

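RNA of 2 whole embryo samples, 1 for each disomy, was measured on 1 array each. The deposited intensity values are MAS5 signals made by the authors with MAS5 and GCOS, per the submitters' processing notes, with versions not given in the sources used here. RNA was amplified and biotin-labelled, per the labels' protocols. Detection calls were not used here. Of 45101 probe sets, 34945 had 1 gene symbol, 932 several, 9160 none listed and 64 were controls. Symbols were updated through the Entrez identifier (34741 matched RefSeq GRCm38.p6). The array annotation's build is not given, so coordinates are printed for RefSeq promoter windows only.

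Each gene was read by its measurable probe set of highest mean signal, and folds are the higher over the lower floored signal. Members, 12 gene lists (271 entries, 248 with a probe set here) and motifs were chosen with earlier results of these data known. Genes were named by a rule: every member probe set, up to 4 genes of each list past 2-fold in each direction or the furthest gene, and the 3 nearest ratios to Cubn, Amn and Dab2. Apoe, B2m, Rbp4, Car4, Ihh, Apoa2, Impact, 2 globin genes and 6 transcription factor genes were added, chosen after their values were seen. No test was made with 1 array for each genotype. Alternatives changed the scaling, floor, probe set rule, filter on dim probe sets and fold threshold. The code was tested on simulated data. The tools were matplotlib 3.10.9, statsmodels 0.14.6 for loess, numpy 2.4.6, pandas 2.3.3 and scipy 1.17.1 in Python 3.11.15.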

Additional observations from a re-analysis of the deposited data

How the results depend on the processing

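Under 13 alternatives (4 scalings, 3 floors, 2 probe set rules, 2 filters on dim probe sets and thresholds of 1.5-fold and 3-fold), no member, named list gene or list median past 2-fold changed direction where it was measurable and computed. The thresholds apply to counts only. Cubn and Amn were the members past the threshold in matUPD18 in all but 2 of them. Scaling on the hybridisation controls added Dab2, and leaving out probe sets with the suffixes _x_at, _s_at and _a_at left 1 member, Amn, of 4 measurable ones, because Cubn was then not measurable. No member passed the threshold in patUPD18 under any of them. The median log2 ratio of the member genes was 1.01 with scaling on the hybridisation controls and 0.30 to 0.63 under the other alternatives that were tried for it. With no filter on dim probe sets all 8 members entered, 2 of them past 2-fold. The log2 ratio of Cubn ran from 1.90 to 3.29 and that of Amn from 1.29 to 1.97 over the floors and the scalings other than that on the controls. The visceral endoderm median ran from 1.04 to 2.52 and the primitive red cell median from -1.39 to -1.21 without the scaling on controls, and they were 1.78 and -0.78 with it. That scaling raised the genes past 2-fold toward matUPD18 to 8 of 29 for clathrin coat and adaptors, 6 of 12 for parietal endoderm and 5 of 35 for endosomes. It raised them to 3 of 16 for the LDL receptor family and 18 of 23 for visceral endoderm, beside 15.6% of all measurable genes. It left 1 of 9 red cell markers past 2-fold toward patUPD18, beside 0.28% of all measurable genes. It turned Calr, Col4a2 and Cryab toward matUPD18. Without suffixed probe sets, 3 cargo genes and 10 visceral endoderm markers passed toward matUPD18, beside 3.08% of all measurable genes. At a threshold of 1.5-fold, 1049 of all measurable genes were higher in matUPD18, and at 3-fold 48. A floor at the 60th percentile left 189 genes past 2-fold toward matUPD18 and 78 toward patUPD18. Ratios of dim probe sets rest on signals near background, and no depth can be given for arrays. No paired analysis was possible because there is 1 array for each genotype.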
